A study of Mus musculus with 12 samples.

Results

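The genes described here are the mouse LEF/TCF factors Lef1, Tcf7l1 and Tcf7l2, which act at the DNA end of the Wnt/beta-catenin pathway, and Tcf4, a basic helix-loop-helix E protein that shares part of its name with them. They were chosen by symbol, as probe sets annotated with only that symbol. Each of the 4 genes had 1 such probe set, among 22180 genes and 41345 probe sets in all, and Tcf7, the remaining LEF/TCF gene, was not analysed here. The expression data came from Affymetrix Mouse Gene 2.0 ST arrays of fibroblasts sorted by flow cytometry from the back skin dermis of mice at postnatal day 2 (P2), with 3 biological replicates in each of 4 populations.

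CD26+ cells (gated as Sca1 negative and taken by the study as papillary fibroblasts), Dlk1+Sca1- cells (reticular fibroblasts), and Dlk1+Sca1+ and Dlk1-Sca1+ cells (the pre-adipocyte populations) were compared. The labels gave the genotype of all mice as wild type, and the study describes PdgfraH2BeGFP reporter mice, in which nuclear GFP follows the Pdgfra locus and GFP+ cells were sorted. By the study's account, all 4 populations were therefore sorted as Pdgfra-expressing dermal cells, separated by surface markers and not by position in the skin. One array, Dlk1-Sca1+ replicate 3, had more Dlk1 (log2 8.69) than the other 2 of its group (8.09 and 8.32), and with genes centred its mean r was 0.06 to the Dlk1+Sca1+ arrays and -0.07 to its own group. The study excluded 1 Dlk1-Sca1+ array that it described in this way, so 11 arrays were fitted, and values with all 12 are given beside the calls and differences that they change.

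LEF/TCF proteins bind DNA through an HMG box. When Wnt signalling is on they recruit beta-catenin and its coactivators to target genes, and when it is off they hold Groucho/TLE corepressors there. In skin, Lef1 is known from the hair follicle and its dermal papilla and from the papillary dermis of newborn mice, and Tcf7l1 is best known as a repressor in follicle stem cells. E proteins such as Tcf4 bind E-box motifs as dimers, usually with a tissue-specific partner such as Twist1, and are sequestered by Id proteins.

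The names need care, because Tcf4 is listed by RefSeq as E2-2 and ITF-2, whereas "TCF-4" is an older name of Tcf7l2 and "Tcf3" an older name of Tcf7l1. The genes are unlinked. On mm10, Lef1 lies on chromosome 3 (131110297 to 131224357), Tcf7l1 on chromosome 6 (72626371 to 72789045), Tcf7l2 on chromosome 19 (55741797 to 55933659) and Tcf4 on chromosome 18 (69343429 to 69687967). Each array value covers the whole gene, so isoforms were not separated.

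The deposited values are log2 signals, so a difference of 1 is a doubling, and levels of different probe sets cannot be compared with each other. Array medians lay between 5.38 and 5.51, and any pair of arrays correlated at r = 0.958 to 0.983. The sort was visible in the markers, since Dpp4 (which encodes CD26) averaged 10.30 in CD26+, 9.22 in Dlk1+Sca1+ and 8.47 in Dlk1+Sca1- cells and Dlk1 averaged 9.93 and 10.13 in the Dlk1+ groups against 8.57 and 8.20 in CD26+ and Dlk1-Sca1+ cells. In Dlk1-Sca1+ cells, however, Dpp4 averaged 10.05 and was not separated from its CD26+ level (difference 0.25 ± 0.29, limma adjusted p = 0.998). Ly6a, which encodes Sca1, was not analysed here. All 12 fibroblast markers lay above the median of all genes (5.65) in every group, with array means of 10.90 to 11.22.

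The 4 factors fell into different patterns. Tcf4 averaged highest in CD26+ cells, not separated from Dlk1-Sca1+ cells, and lowest in Dlk1+Sca1+ cells. Tcf7l2 was lowest in CD26+ and highest in Dlk1+Sca1+ cells, Lef1 was lowest in Dlk1+Sca1+ cells, and Tcf7l1 passed in no pairwise comparison. Of 24 pairwise differences (4 genes in 6 comparisons), 8 passed limma's test at an adjusted p of 0.05, with Benjamini-Hochberg adjustment over all genes. Over the same 6 comparisons, 1.32% of all gene tests passed. In bulk samples, fewer expressing cells and less RNA per cell cannot be told apart.

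**Figure D1:**
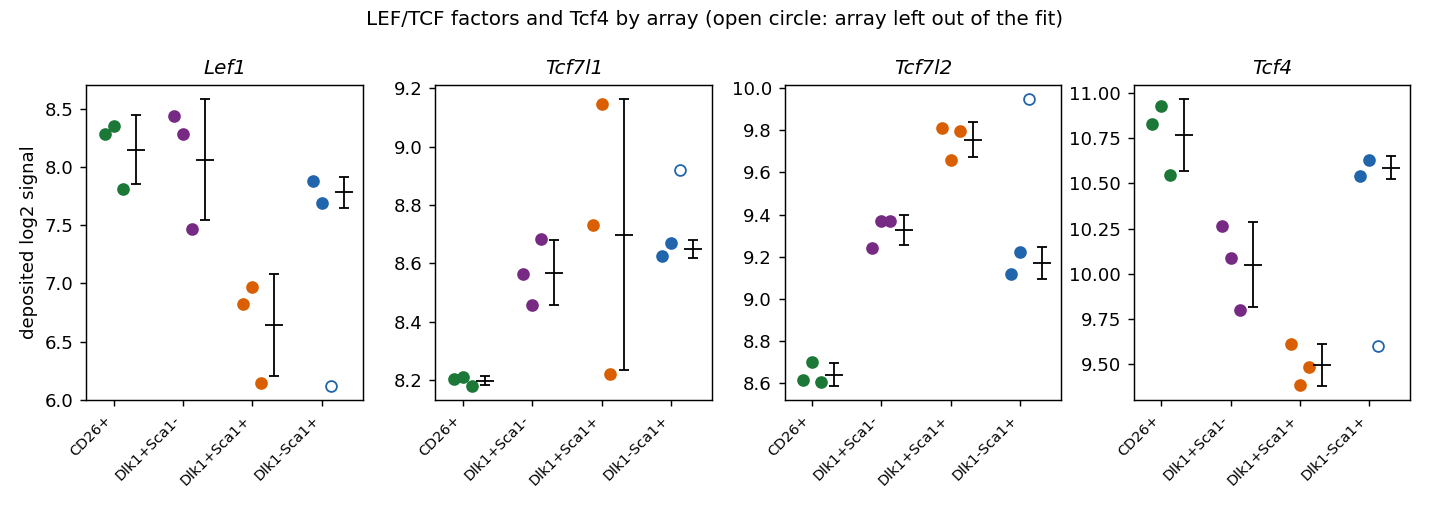
Deposited log2 signal of each gene (vertical axis, scaled separately for each gene) on every array, by sorted population; bars give the mean ± SD of the fitted arrays and the open circle is the array left out. CD26+ arrays sit lowest for Tcf7l2 and Dlk1+Sca1+ arrays lowest for Lef1 and Tcf4, and the left-out array lies near the Dlk1+Sca1+ arrays.

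Lef1, the LEF/TCF factor tied to hair follicle induction, was lowest in Dlk1+Sca1+ cells. Its log2 levels were 8.29, 8.35 and 7.81 in CD26+ replicates 1 to 3, 8.44, 8.29 and 7.47 in Dlk1+Sca1-, 6.82, 6.97 and 6.15 in Dlk1+Sca1+, and 7.88 and 7.69 in the Dlk1-Sca1+ arrays fitted. Every Dlk1+Sca1+ array lay below every fitted array of the other groups, which overlapped one another. The Dlk1-Sca1+ array left out read 6.12, below every fitted array. Replicate 3 carried the lowest Lef1 value in each group with 3 fitted arrays, and the spread within groups (SD 0.44 in Dlk1+Sca1+ and 0.52 in Dlk1+Sca1- cells, n = 3 each) was wider than for Tcf7l2 or Tcf4.

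The group means of Lef1 ran from CD26+ (8.15 ± 0.30, SD, n = 3) through Dlk1+Sca1- (8.06 ± 0.52) and Dlk1-Sca1+ (7.78 ± 0.13, n = 2) to Dlk1+Sca1+ (6.64 ± 0.44). Lef1 was 2.84-fold higher in CD26+ cells than in Dlk1+Sca1+ cells (log2 difference 1.51 ± 0.27, SE; limma adjusted p = 0.00653) and 2.68-fold lower in Dlk1+Sca1+ cells than in Dlk1+Sca1- cells (log2 difference -1.42 ± 0.27, adjusted p = 0.0234). Neighbours at the top of this order were not separated: CD26+ differed from Dlk1+Sca1- by 0.09 ± 0.27 (95% interval -0.50 to 0.67). The difference of 1.14 ± 0.30 between Dlk1-Sca1+ and Dlk1+Sca1+ cells did not pass (adjusted p = 0.112), and with all 12 arrays it was 0.58 (adjusted p = 0.737). It passed when replicate number was fitted as a block.

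The comparison of Dlk1+Sca1+ with Dlk1+Sca1- cells lost its call for Lef1 without any 1 of 4 arrays, Dlk1+Sca1- replicate 1 or 2 or Dlk1+Sca1+ replicate 1 or 3, with adjusted p reaching 0.114. With all 12 arrays neither Lef1 call passed (adjusted p = 0.0743 and 0.156).

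Markers of the dermal condensate and papilla, where Lef1 is also expressed, were likewise lowest in Dlk1+Sca1+ cells, but unlike Lef1 they also averaged less in CD26+ than in Dlk1+Sca1- cells. Over the 22 markers measured, array means were 7.52 to 8.06 in Dlk1+Sca1- cells, 7.23 to 7.56 in CD26+, 7.23 to 7.28 in Dlk1-Sca1+ and 6.78 to 7.04 in Dlk1+Sca1+. None passed higher and 8 passed lower in Dlk1+Sca1+ against Dlk1+Sca1- cells (0.649% and 0.586% of all genes), falling to 4 lower without replicate 1 of Dlk1+Sca1- and to 5 without that of Dlk1+Sca1+. In CD26+ against Dlk1+Sca1+ cells 5 passed higher and 3 (Vcan, Fgf7 and Fgf10) lower (2.05% and 1.68%), the latter falling to 1 without any 1 CD26+ array or Dlk1+Sca1+ replicate 1 or 2. In CD26+ against Dlk1+Sca1- cells none passed higher and 4 lower (0.654% and 0.442%), with 0 to 1 lower without CD26+ replicate 1 or 3 or Dlk1+Sca1- replicate 1 or 2, and 7 without Dlk1+Sca1- replicate 3. All 12 arrays gave 9, 2 and 3 lower in these comparisons.

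Replicate 3 was the lowest array of its group for 16 of the 22 markers in CD26+, 17 in Dlk1+Sca1- and 13 in Dlk1+Sca1+ cells, as it was for Lef1. The part of papilla cells in the Lef1 differences was not tested. Sox2, a gene that marks papillae of some follicle types, averaged 4.53 in Dlk1+Sca1- cells and 3.34 to 3.41 in the other groups, below the median of all genes in each.

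Tcf7l2, a widely expressed LEF/TCF factor whose human counterpart is a known diabetes risk gene, varied little within groups on the fitted arrays. Log2 levels were 8.62, 8.70 and 8.60 in CD26+ replicates 1 to 3, 9.24, 9.37 and 9.37 in Dlk1+Sca1-, 9.81, 9.66 and 9.80 in Dlk1+Sca1+, and 9.12 and 9.22 in Dlk1-Sca1+ cells. On these arrays no pair of groups overlapped, and CD26+ was the lowest and Dlk1+Sca1+ the highest. SDs within groups were 0.05 to 0.08. With the array left out (9.95) included, the SD of Dlk1-Sca1+ cells was 0.45 (n = 3).

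Tcf7l2 was 2.16-fold lower in CD26+ cells than in Dlk1+Sca1+ cells (log2 difference -1.11 ± 0.11, adjusted p = 8.95e-05), the 45th smallest p of 22180 genes. It was also 1.61-fold lower in CD26+ cells than in Dlk1+Sca1- cells (-0.69 ± 0.11, adjusted p = 0.0102) and 1.5-fold lower in Dlk1-Sca1+ cells than in Dlk1+Sca1+ cells (-0.58 ± 0.13, adjusted p = 0.0416). Neighbouring groups in the order did not pass: Dlk1+Sca1+ exceeded Dlk1+Sca1- by 0.43 ± 0.11 (adjusted p = 0.101), and Dlk1-Sca1+ differed from Dlk1+Sca1- by -0.16 ± 0.13 (adjusted p = 0.663), which turned to 0.10 with all 12 arrays. CD26+ lay 0.53 ± 0.13 below Dlk1-Sca1+ cells (adjusted p = 0.311), a comparison in which 0.0857% of all genes passed, and the difference with all 12 arrays was -0.79 (adjusted p = 0.146).

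Against the mean of the 3 other groups, CD26+ cells had less Tcf7l2 by a log2 difference of -0.78 ± 0.09 (adjusted p = 0.0011), where 1.27% of all genes passed. The comparison of CD26+ with Dlk1+Sca1- cells did not pass with all 12 arrays. Nor did it pass without CD26+ replicate 1 or 3 (adjusted p = 0.0664 and 0.0541). The Dlk1-Sca1+ against Dlk1+Sca1+ call was lost in 9 of 11 such repeats, all but those without Dlk1+Sca1- replicate 2 or 3 (adjusted p up to 0.253), and with all 12 arrays, the difference was -0.33 (adjusted p = 0.610).

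Grouped by Sca1, the mean of the 2 Sca1+ populations exceeded the mean of CD26+ and Dlk1+Sca1- cells by 0.48 ± 0.08 for Tcf7l2 (adjusted p = 0.018), where 0.784% of all genes passed. This call was lost without CD26+ replicate 1, Dlk1+Sca1+ replicate 3 or either fitted Dlk1-Sca1+ array, with adjusted p up to 0.108. Within the Sca1+ groups, Tcf7l2 averaged higher in Dlk1+Sca1+ cells, as given above. The fitted Dlk1-Sca1+ arrays (9.12 and 9.22) lay below every Dlk1+Sca1- array (9.24 to 9.37), while the array left out (9.95) lay above them. On the fitted arrays, the pooled difference therefore does not describe each Sca1+ group. Adipogenic genes had high means on the fitted arrays of both Sca1+ groups (7.29 to 7.49 in Dlk1+Sca1+ and 7.21 to 7.27 in Dlk1-Sca1+ cells, over 15 genes). Their array means were lower in CD26+ (6.01 to 6.33) and Dlk1+Sca1- cells (6.25 to 6.79). The array left out had 8.01, above every other array.

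Tcf7l1, the LEF/TCF member known mainly as a repressor, passed in none of the 6 pairwise comparisons, and 1 had an unadjusted limma p under 0.05, as did 11.3% of all gene tests over these comparisons. Its log2 levels were 8.20, 8.21 and 8.18 in CD26+ replicates 1 to 3, 8.56, 8.46 and 8.68 in Dlk1+Sca1-, 8.73, 9.15 and 8.22 in Dlk1+Sca1+, and 8.63 and 8.67 in Dlk1-Sca1+ cells. All CD26+ arrays lay below all others, but Dlk1+Sca1+ replicate 3 lay just above them. Against Dlk1+Sca1+ cells the CD26+ difference was -0.50 ± 0.19 (95% interval -0.91 to -0.09, adjusted p = 0.215), and without that array it was -0.74 and passed (adjusted p = 0.0294).

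Tcf4, the E protein, ran opposite to Tcf7l2. Log2 levels were 10.83, 10.93 and 10.55 in CD26+ replicates 1 to 3, 10.27, 10.09 and 9.80 in Dlk1+Sca1-, 9.61, 9.38 and 9.49 in Dlk1+Sca1+, and 10.54 and 10.63 in Dlk1-Sca1+ cells. CD26+ and fitted Dlk1-Sca1+ arrays overlapped and lay above all Dlk1+ arrays, and every Dlk1+Sca1- array lay above every Dlk1+Sca1+ array.

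Tcf4 was 2.41-fold higher in CD26+ cells than in Dlk1+Sca1+ cells (log2 difference 1.27 ± 0.14, adjusted p = 0.000168), 2.13-fold higher in Dlk1-Sca1+ cells than in Dlk1+Sca1+ cells (1.09 ± 0.16, adjusted p = 0.00402) and 1.64-fold higher in CD26+ cells than in Dlk1+Sca1- cells (0.72 ± 0.14, adjusted p = 0.0263). The CD26+ and Dlk1-Sca1+ groups differed by 0.18 ± 0.16 (95% interval -0.15 to 0.52), and by 0.51 with all 12 arrays (adjusted p = 0.715). Dlk1-Sca1+ exceeded Dlk1+Sca1- by 0.53 ± 0.16 (adjusted p = 0.169; 0.21 with all 12 arrays), and Dlk1+Sca1+ lay below Dlk1+Sca1- by a difference of -0.55 ± 0.14 (adjusted p = 0.0831), so neither neighbour passed.

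CD26+ cells exceeded the mean of the other groups by 0.72 ± 0.12 (adjusted p = 0.00766). That call was lost without CD26+ replicate 1 or 2 (adjusted p = 0.0815 and 0.0593), the CD26+ against Dlk1+Sca1- call without CD26+ replicate 1 or 2 or Dlk1+Sca1- replicate 2 or 3 (up to 0.144), and the Dlk1-Sca1+ against Dlk1+Sca1+ call without Dlk1-Sca1+ replicate 2 (0.0609). With all 12 arrays, the Tcf4 differences between CD26+ and Dlk1+Sca1- (adjusted p = 0.199) and between Dlk1-Sca1+ and Dlk1+Sca1+ cells (0.76, adjusted p = 0.207) did not pass. The array left out had Tcf4 at 9.60, within the Dlk1+Sca1+ range, and Tcf7l2 at 9.95, above every other array.

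Cell cycle genes were high in the same groups as Tcf4. Array means over 25 of them were 7.88 to 8.08 in CD26+ and 8.06 to 8.21 in Dlk1-Sca1+ cells, against 7.33 to 7.60 in Dlk1+Sca1- and 7.31 to 7.37 in Dlk1+Sca1+ cells. The left-out array had 7.46. Leukocyte markers, of which Thy1 is also a fibroblast gene, were highest in Dlk1+Sca1+ cells (array means 5.55 to 5.61, against 4.97 to 5.17 elsewhere on fitted arrays), where 8 of 18 lay above the median of all genes against 2 or 3 in the other groups, and the macrophage genes Pf4 (6.40, against 3.80 to 4.12) and Mrc1 (6.19, against 4.73 to 4.93) stood out.

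Keratinocyte markers had means over 13 genes of 5.22, 6.18 and 6.34 on CD26+ replicates 1 to 3, against 5.17 to 5.60 on the other fitted arrays. On the same CD26+ arrays Tcf4 was 10.83, 10.93 and 10.55 and Tcf7l2 was 8.62, 8.70 and 8.60. The part of proliferating cells, leukocytes or keratinocytes in the Tcf4 and Tcf7l2 differences was not tested. Plasmacytoid dendritic cells, which depend on Tcf4, had 9 markers measured, with array means of 4.90 to 5.36.

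**Figure D2:**
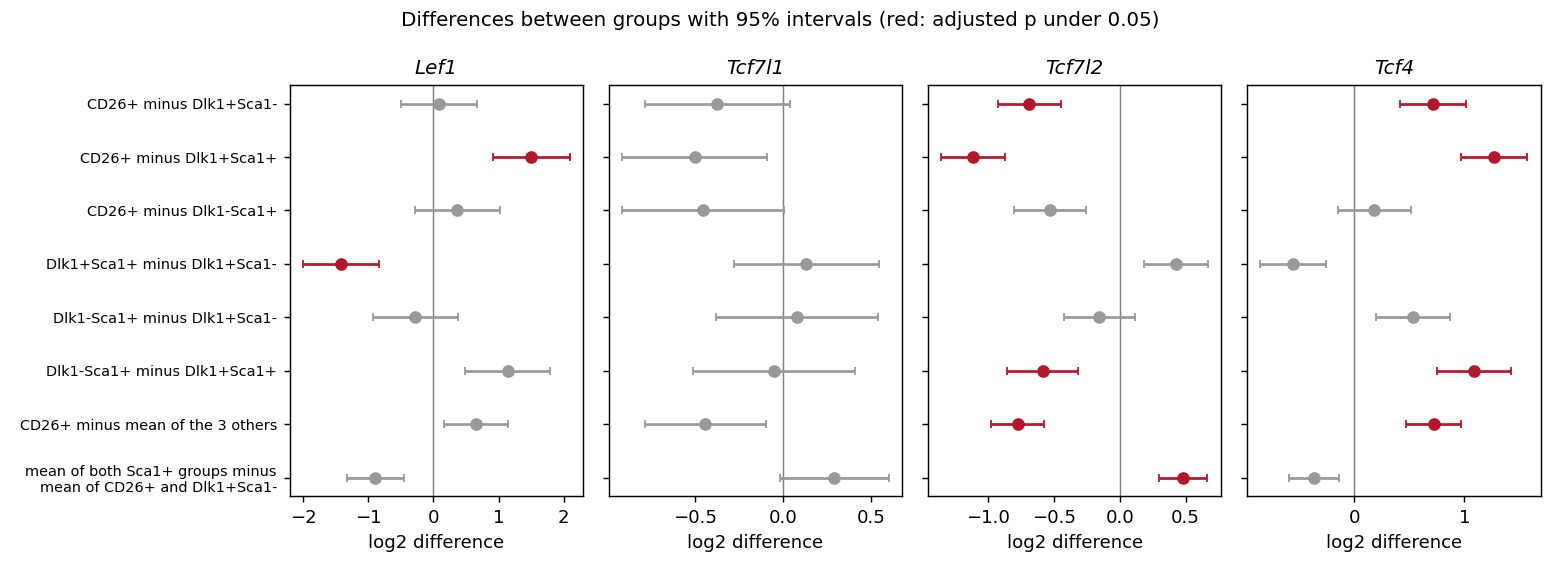
Log2 difference between populations (horizontal axis) with its 95% interval from limma, for each gene in 8 comparisons; red points passed at an adjusted p of 0.05. Tcf7l2 and Tcf4 lie on opposite sides of 0 in each comparison, and all Tcf7l1 points are grey.

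By comparison, the 4 genes gave the following counts. CD26+ against Dlk1+Sca1+ cells had 3 of 4 genes passing (Lef1, Tcf7l2 and Tcf4), where 3.72% of all genes passed. CD26+ against Dlk1+Sca1- had 2 of 4 (Tcf7l2 and Tcf4; 1.1% of all genes), Dlk1-Sca1+ against Dlk1+Sca1+ had 2 of 4 (the same genes; 1.19%) and Dlk1+Sca1+ against Dlk1+Sca1- had 1 of 4 (Lef1; 1.24%). None of the 4 passed between CD26+ and Dlk1-Sca1+ cells or between Dlk1-Sca1+ and Dlk1+Sca1- cells (0.591% of all genes), although 1 of 4 in each reached an unadjusted limma p under 0.05 (5.52% and 12.4% of all genes).

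Fitted arrays of the groups compared did not overlap in 17 of the 24 pairwise cases. Over all genes, 22% of such cases showed no overlap, with 15.2% to 28.1% in a single comparison. The comparisons share arrays, and their results are therefore not independent of one another.

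The opposite course of Tcf4 and Tcf7l2 was summarised as their log2 difference on each array, which has no absolute meaning between probe sets but can be compared between groups. Tcf4 minus Tcf7l2 was 2.13 ± 0.16 (SD, n = 3) in CD26+, 1.41 ± 0.01 (n = 2) in Dlk1-Sca1+, 0.72 ± 0.30 (n = 3) in Dlk1+Sca1- and -0.26 ± 0.06 (n = 3) in Dlk1+Sca1+ cells. With all 3 Dlk1-Sca1+ arrays that group's value was 0.83 ± 1.02, close to Dlk1+Sca1- cells, so its place in the order rests on the array left out. The pair was chosen with its course known and each gene was tested above, so these values are a description. Across the 11 arrays, which fall into 4 groups, Tcf4 and Tcf7l2 correlated at r = -0.90, Lef1 and Tcf4 at 0.79, Lef1 and Tcf7l2 at -0.75, Tcf7l1 and Tcf7l2 at 0.60, Tcf7l1 and Tcf4 at -0.55, and Lef1 and Tcf7l1 at -0.28.

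**Figure D3:**
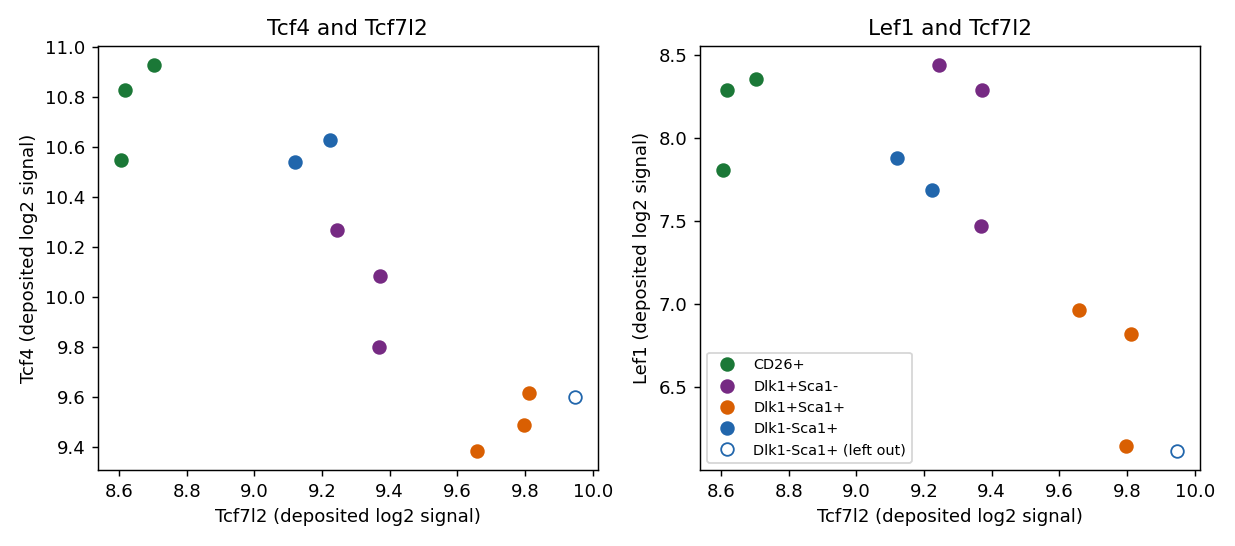
Tcf4 (left) and Lef1 (right) against Tcf7l2 on each array, as deposited log2 signals, coloured by population; the open circle is the array left out. Tcf4 falls as Tcf7l2 rises across the groups (r = -0.90 over 11 arrays), while Lef1 is low mainly on the Dlk1+Sca1+ arrays.

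No call was made for the partners that LEF/TCF factors use for activation. None of 19 genes for beta-catenin and its nuclear coactivators passed in any of the 8 comparisons, where 0.0857% to 3.72% of all genes did. At such shares, a lack of calls in a list of this size does not show that the groups were alike. Between CD26+ and Dlk1+Sca1+ cells, 7 of the 19 reached an unadjusted limma p under 0.05, all higher in CD26+, as did 8.03% of all genes. Over the list the median log2 difference there was 0.29, beside -0.01 for all genes. Ctnnb1, which encodes beta-catenin, averaged 9.04 in CD26+, 8.88 in Dlk1+Sca1-, 8.62 in Dlk1+Sca1+ and 8.83 in Dlk1-Sca1+ cells. Pygo1, a reader of histone marks that bridges to beta-catenin through Bcl9, showed the largest difference of the list (8.54 in CD26+ and 7.69 in Dlk1+Sca1+ cells; 0.85 ± 0.23, adjusted p = 0.0596), followed by Jup, plakoglobin (-0.64 ± 0.24 in Dlk1+Sca1+ against Dlk1+Sca1- cells, adjusted p = 0.301).

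Among 22 corepressors and inhibitors, Tle1 alone passed in any of the 8 comparisons, where 0.0857% to 3.72% of all genes did. Tle1 encodes a Groucho corepressor that binds LEF/TCF factors, and its log2 levels were 8.0, 7.64 and 7.70 in CD26+, 6.95, 6.79 and 6.33 in Dlk1+Sca1-, 6.43, 6.69 and 6.22 in Dlk1+Sca1+, and 7.60 and 7.66 in Dlk1-Sca1+ cells. CD26+ and Dlk1-Sca1+ arrays were high and all Dlk1+ arrays low, as for Tcf4. Tle1 was higher in CD26+ cells than in Dlk1+Sca1+ cells by 1.33 ± 0.20 (limma adjusted p = 0.00173) and than in Dlk1+Sca1- cells by 1.09 ± 0.20 (0.0184). It was also higher in Dlk1-Sca1+ cells than in Dlk1+Sca1+ cells by 1.18 ± 0.22 (0.0212). In these comparisons 2.05%, 0.654% and 0.649% of all genes passed higher. The first Tle1 call held in all 11 repeats with an array left out, the others in 9 and 7. With all 12 arrays the first passed (0.0244) and the others did not (0.134 and 0.374). Its relative Tle3 showed no such pattern, with group means of 8.11 to 8.44.

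Canonical Wnt target genes gave the most calls between CD26+ and Dlk1+Sca1+ cells, where 7 of 18 were higher in CD26+ (2.05% of all genes were) and 1 was lower (1.68%). The median difference over the 18 was 0.37, beside -0.01 for all genes, and 11 of the 18 differences were above 0. Leaving out each array in turn gave 5 to 8 higher and 1 lower. All 12 arrays gave 4 higher and 1 lower, without Nkd1 (adjusted p = 0.0563), Nkd2 (0.104) and Bmp4 (0.0532). The higher genes were the feedback inhibitors Axin2, Nkd1, Nkd2 and Apcdd1, the receptor gene Tnfrsf19, and the regulators Twist1 and Bmp4.

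Axin2, the most widely used readout of beta-catenin activity, had levels of 8.69, 9.28 and 8.55 in CD26+, 8.10, 7.65 and 7.67 in Dlk1+Sca1-, 7.28, 7.31 and 7.23 in Dlk1+Sca1+, and 7.98 and 8.21 in Dlk1-Sca1+ cells. CD26+ arrays were above all others and Dlk1+Sca1+ arrays below all others. Its difference was 1.56 ± 0.20 between CD26+ and Dlk1+Sca1+ cells (adjusted p = 0.000493) and 1.03 ± 0.20 between CD26+ and Dlk1+Sca1- cells (0.0229), the latter held in 7 of 11 repeats and not with all 12 arrays (0.0894).

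Apcdd1, a membrane inhibitor of Wnt signalling, was at 10.71, 10.58 and 10.06 in CD26+, 10.18, 9.90 and 9.5 in Dlk1+Sca1-, 8.48, 8.94 and 8.71 in Dlk1+Sca1+, and 10.13 and 10.10 in Dlk1-Sca1+ cells. As with Lef1, the Dlk1+Sca1+ arrays alone stood below the rest. Apcdd1 was higher in CD26+ cells than in Dlk1+Sca1+ cells by 1.74 ± 0.20 (adjusted p = 0.000224).

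Lgr5, an R-spondin receptor and Wnt target in epithelial stem cells, ran against the others. Its levels were 7.45, 8.05 and 8.03 in CD26+, 8.22, 7.89 and 8.88 in Dlk1+Sca1-, 9.92, 9.60 and 9.60 in Dlk1+Sca1+, and 7.84 and 7.89 in Dlk1-Sca1+ cells. Every Dlk1+Sca1+ array exceeded every other fitted array. Lgr5 was lower in CD26+ cells than in Dlk1+Sca1+ cells by a log2 difference of -1.87 ± 0.23 (adjusted p = 0.000475), and the call held with all 12 arrays (0.000864).

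The remaining comparisons gave fewer target genes. Between Dlk1+Sca1+ and Dlk1+Sca1- cells, Lgr5 and Trabd2b (a protease that inactivates Wnt ligands) were higher and Nkd2, Apcdd1 and Tnfrsf19 lower, of 18, against 0.649% of all genes higher and 0.586% lower. All 12 arrays kept the 2 higher calls and none of the lower ones (Nkd2 0.0848, Apcdd1 0.0726, Tnfrsf19 0.0965). No target gene passed without Dlk1+Sca1- replicate 1, only 1 (higher) without Dlk1+Sca1+ replicate 1, and the lower calls numbered 1 without Dlk1+Sca1- replicate 2 or Dlk1+Sca1+ replicate 3. Between Dlk1-Sca1+ and Dlk1+Sca1+ cells, the secreted inhibitors Dkk1 (1.68 ± 0.26, adjusted p = 0.00723) and Wif1 (0.86 ± 0.17, 0.0274) were higher together with Apcdd1 and Tnfrsf19, and Lgr5 was lower, where 0.649% of all genes were higher and 0.537% lower. Of these 5, Dkk1 and Lgr5 passed with all 12 arrays. Leaving out either fitted Dlk1-Sca1+ array left 1 target gene passing, and leaving out Dlk1+Sca1+ replicate 3 left 2 higher and 1 lower. No target gene passed between CD26+ and Dlk1-Sca1+ cells, where 2 reached an unadjusted limma p under 0.05 in each direction (2.71% of all genes higher and 2.81% lower).

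**Figure D4:**
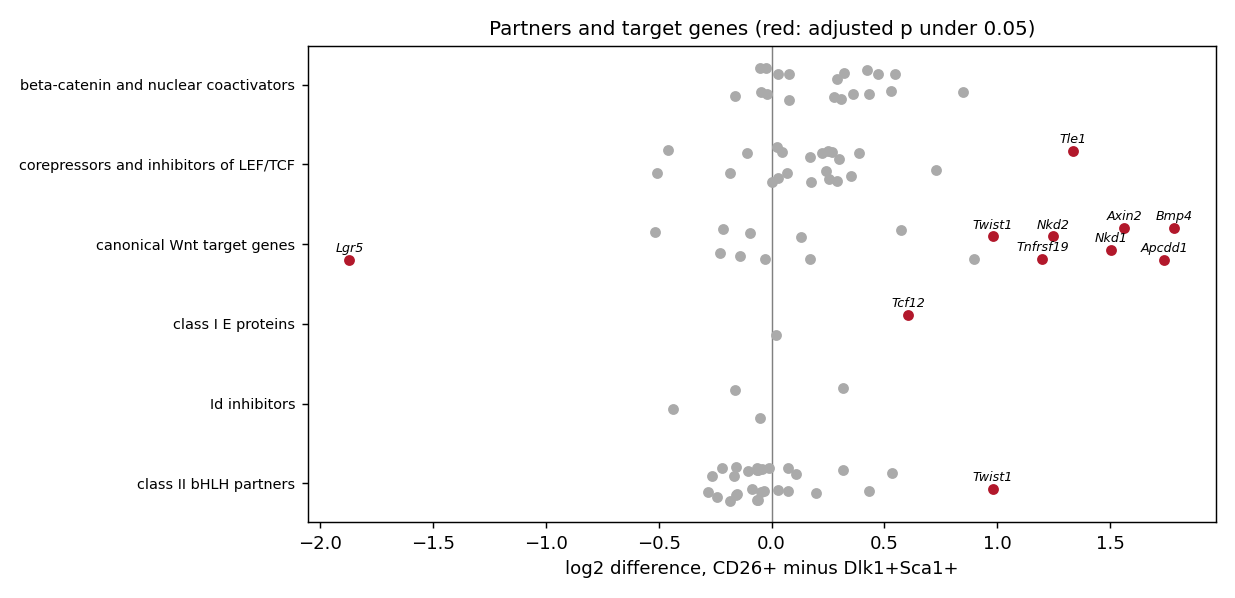
Log2 difference between CD26+ and Dlk1+Sca1+ cells (horizontal axis) for genes of the LEF/TCF and E-protein lists, the 4 factors themselves left out; each point is a gene, red and named where it passed at an adjusted p of 0.05, and height within a row has no meaning. In the Wnt target row 7 genes lie to the right and Lgr5 to the left, while no coactivator passed.

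Among the other genes of the E-protein network, Tcf12, Twist1 and Id3 each passed in at least 1 comparison. Tcf12, an E protein that can replace Tcf4 in dimers, was higher in CD26+ cells than in Dlk1+Sca1+ cells (9.28 and 8.67; 0.60 ± 0.12, adjusted p = 0.0127), a call kept in 8 of 11 repeats with an array left out. The third E protein gene, Tcf3 (E2A, unrelated to the older name of Tcf7l1), averaged 7.94 to 8.14 in the 4 groups. Of 29 tissue-specific partners, Twist1, a regulator of mesenchyme, alone passed. Twist1 was at 10.39 in CD26+ and 9.41 in Dlk1+Sca1+ cells (0.98 ± 0.15, limma adjusted p = 0.00216, held in all 11 repeats). In that comparison 2.05% of all genes passed higher, and 1 call among 29 is near that share. In any group, 10 to 12 of the 29 lay above the median of all genes. Of the 4 Id genes, Id3 was higher in Dlk1+Sca1+ cells than in Dlk1+Sca1- cells (0.84 ± 0.18, limma adjusted p = 0.0487), where 0.649% of all genes passed higher. The Id3 call held in 1 of the 11 repeats with an array left out and not with all 12 arrays (0.0532).

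Genes whose levels followed each factor most closely were found among 3393 genes with levels above the median and group means spread over at least 0.5. They were chosen for that likeness, so their levels are a description. Over the 11 arrays, the closest to Lef1 were Bmp4 (r = 0.98), a BMP ligand of the dermis, and Daam2 (0.98), a formin of the Wnt pathway, then Crabp1 (0.96), a retinoic acid binding protein, Specc1 (0.95) and Sort1 (0.95). Crabp1 had the widest course, from 9.06 in CD26+ to 6.42 in Dlk1+Sca1+ cells.

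Closest to Tcf7l2 were Selenop, Fzd4, Pcolce and Qpct (0.97 each) and Slc38a4 (0.96). Fzd4, a Wnt receptor, averaged 7.19 in CD26+, 8.38 in Dlk1+Sca1-, 9.64 in Dlk1+Sca1+ and 8.37 in Dlk1-Sca1+ cells, and Pcolce, which speeds procollagen processing, 10.44, 10.99, 11.51 and 10.83. Closest to Tcf4 were Trim59 (0.99), Entpd1 (0.98), Ctnna1 (0.97), Trim36 (0.97) and Dkk2 (0.96). Entpd1 encodes the ectonucleotidase CD39 and averaged 8.44, 7.0, 5.76 and 8.12 in the same order of groups, and Dkk2, a secreted Wnt modulator, 7.89, 6.54, 5.73 and 7.23. Likeness to Tcf7l1 was weaker, with Snx24 (0.84), Prkaa1 (0.81), Smarca1, Tnnc2 and Tmem70 (0.79 each).

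**Figure D5:**
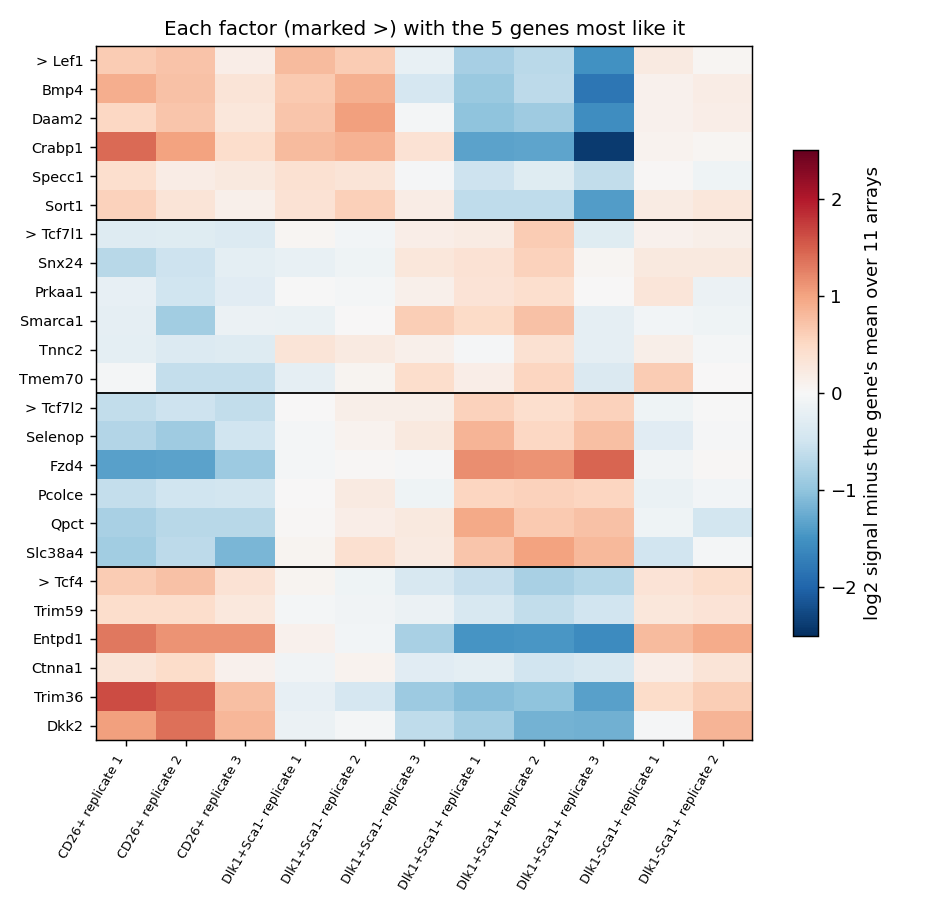
Log2 signal minus each gene's mean over the 11 fitted arrays (colour, red above and blue below the mean), for each factor and the 5 genes with the highest Pearson r to it; columns are arrays by population. The Lef1 block is blue in Dlk1+Sca1+ columns, and the Tcf7l2 and Tcf4 blocks have opposite colours in CD26+ and Dlk1+Sca1+ columns.

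Upstream sequence was read for these genes because the factors bind known motifs. The window was the 250 bases before the most upstream RefSeq start for which promoter sequence was available (GRCm38.p6). For Tcf7l2 that start was 55741810, inside the gene span given above (from 55741797), so its window ends within the gene. Windows were searched on both strands for the LEF/TCF word (CTTTG followed by A or T at each of the next 2 places) and for the E-boxes CAGGTG and CAGCTG. Among 27025 such windows, 14.9% held a LEF/TCF word and 27.4% an E-box. The windows of Lef1, Tcf7l1 and Tcf7l2 held neither. No window was searched for Tcf4. Of the 20 genes most like the factors, 14 had a window that was searched, and of these 1 held a LEF/TCF word and 6 an E-box. The remaining genes had no available window or were left out of the search, so 14 is not a count of all genes with a window.

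Stretches of 100 bases are shown for Lef1 (chr3:131110197-131110296, plus strand) and Tcf7l2 (chr19:55741710-55741809, plus strand), the LEF/TCF genes that moved in opposite directions, and for genes near the top of the likeness lists that held a motif. Those are Bmp4 (chr14:46390767-46390866, minus strand) for Lef1, Selenop (chr15:3270521-3270620, plus strand) for Tcf7l2, and Trim59 (chr3:69044748-69044847, minus strand) and Entpd1 (chr19:40612116-40612215, plus strand) for Tcf4. All are from RefSeq and written 5′ to 3′ on the gene's strand. Capitals mark a motif, which is a LEF/TCF word in Trim59 (TTCAAAG, the reverse complement of CTTTGAA) and E-boxes in the others, Entpd1 holding CAGGTG and CAGCTG side by side. A match describes the letters only and is not a binding site.
Lef1: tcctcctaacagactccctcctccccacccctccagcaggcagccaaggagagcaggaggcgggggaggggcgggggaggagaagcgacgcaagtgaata
Tcf7l2: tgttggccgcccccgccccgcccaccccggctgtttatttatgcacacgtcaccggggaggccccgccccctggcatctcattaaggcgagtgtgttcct
Bmp4: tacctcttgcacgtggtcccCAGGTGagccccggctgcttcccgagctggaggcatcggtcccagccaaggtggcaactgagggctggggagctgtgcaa
Selenop: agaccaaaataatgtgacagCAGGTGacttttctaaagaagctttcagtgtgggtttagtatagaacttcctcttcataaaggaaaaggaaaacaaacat
Trim59: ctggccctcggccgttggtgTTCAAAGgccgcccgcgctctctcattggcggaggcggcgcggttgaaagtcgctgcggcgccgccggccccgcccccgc
Entpd1: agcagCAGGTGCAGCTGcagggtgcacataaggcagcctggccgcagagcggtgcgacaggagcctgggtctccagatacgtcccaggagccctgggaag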

How the data were processed

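Expression was measured on 12 Mouse Gene 2.0 ST arrays of sorted P2 dermal fibroblasts. The authors deposited 1 log2 signal per probe set and array. The submitters' processing notes name mm10. Background correction, normalisation and summarisation are not given in the sources used here. Of 41345 probe sets, 23521 had 1 symbol, 1820 several and 16004 none. The brightest probe set per symbol represented 22180 genes, with no filter. Groups came from the sample titles.

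Differences were tested with limma 3.58.1 in R 4.3.3 (lmFit, eBayes with trend and robust fitting, statmod 1.5.0) on 11 arrays, with 7 residual degrees of freedom, two-sided, and Benjamini-Hochberg adjustment over all genes within each comparison. The code was first tested on simulated data. The array left out was identified by its Dlk1 level and its correlations over all genes, the 4 factors included. The number of arrays limits the precision.

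The members and gene lists were chosen with earlier results of these data known. Text names the 4 members, the 5 genes most like each (Pearson r, above the median level, no predicted or non-coding genes), and list genes called at least once or, where none was, those with the 2 largest pairwise differences. Alternatives changed the arrays, scaling, filter, probe set rule, fit and test.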

Additional observations from a re-analysis of the deposited data

How the results depend on the processing

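Of 624 alternative values for the 4 genes, 556 kept both direction and side of the threshold, and Tcf7l2 and Tcf4 passed between CD26+ and Dlk1+Sca1+ cells in every limma setting. Adjusted p is given in parentheses. With all 12 arrays, calls were lost for CD26+ minus Dlk1+Sca1- (Tcf7l2 -0.69, Tcf4 0.72), for Lef1 in CD26+ minus Dlk1+Sca1+ (1.51) and Dlk1+Sca1+ minus Dlk1+Sca1- (-1.42), and for Dlk1-Sca1+ minus Dlk1+Sca1+ (Tcf7l2 -0.33, Tcf4 0.76). Of uncalled values, Tcf7l2 in Dlk1-Sca1+ minus Dlk1+Sca1- became 0.10 and Tcf7l1 in Dlk1-Sca1+ minus Dlk1+Sca1+ 0.041. Quantile normalisation turned Lef1 in CD26+ minus Dlk1+Sca1- to -0.047 and Tcf7l1 in Dlk1-Sca1+ minus Dlk1+Sca1- to -0.083, lost Tcf4 in CD26+ minus Dlk1+Sca1- (0.61; 0.0584) and gained it in Dlk1+Sca1+ minus Dlk1+Sca1- (-0.71; 0.0232). Median centring lost Tcf7l2 in Dlk1-Sca1+ minus Dlk1+Sca1+ (-0.56; 0.057). Plain eBayes lost this (-0.58; 0.0944) and Tcf4 in CD26+ minus Dlk1+Sca1- (0.72; 0.0697). Fitting only the groups compared lost the same 2 calls and Tcf7l2 in CD26+ minus Dlk1+Sca1- (-0.69; 0.0581) and Lef1 in Dlk1+Sca1+ minus Dlk1+Sca1- (-1.42; 0.0941). Without the 40% dimmest genes, the Sca1 contrast (mean of the Sca1+ groups minus mean of CD26+ and Dlk1+Sca1-) passed for Lef1 (-0.89; 0.0449). The study's methods name Student tests for experiments in general and state no test for the arrays. A Student t-test per gene with Benjamini-Hochberg adjustment, on the same differences (Tcf7l2 -0.69, -1.11 and -0.58, Tcf4 0.72, 1.27 and 1.09, Lef1 1.51 and -1.42), called none of them (0.0604 to 0.501). It called 5 genes over the 6 pairwise comparisons, all in CD26+ minus Dlk1+Sca1+, in place of 1756, with 1310 to 2893 genes per comparison at an unadjusted p under 0.05.

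Whether replicate numbers pair the arrays was not settled. Deviations of same-numbered arrays correlated at -0.05 to 0.14 (15 pairs, median 0.045) and others at -0.14 to 0.09 (30 pairs, median -0.032). With the replicate block, Tcf4 in Dlk1+Sca1+ minus Dlk1+Sca1- (-0.55; 0.0477) and Lef1 in Dlk1-Sca1+ minus Dlk1+Sca1+ (0.90; 0.0342), CD26+ minus the mean of the others (0.73; 0.0164) and the Sca1 contrast (-1.01; 0.00143) passed, Tcf7l2 in Dlk1-Sca1+ minus Dlk1+Sca1+ did not (-0.58; 0.0758), and the Sca1 contrast called 281 genes in place of 174.

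Leaving out each array in turn gave, for CD26+ minus Dlk1+Sca1-, Lef1 -0.21 to 0.27 (below 0 without CD26+ replicate 2, -0.02, or Dlk1+Sca1- replicate 3, -0.21), Tcf7l2 -0.73 to -0.66 and Tcf4 0.59 to 0.83. For CD26+ minus Dlk1+Sca1+, Tcf7l1 ran from -0.74 to -0.28. For Dlk1+Sca1+ minus Dlk1+Sca1-, the ranges were -1.72 to -1.17 (Lef1), -0.094 to 0.37 (Tcf7l1, below 0 without Dlk1+Sca1+ replicate 2) and -0.68 to -0.45 (Tcf4). For Dlk1-Sca1+ minus Dlk1+Sca1+, they were 0.89 to 1.30 (Lef1), -0.29 to 0.17 (Tcf7l1, above 0 without Dlk1+Sca1+ replicate 2), -0.64 to -0.53 (Tcf7l2) and 1.03 to 1.15 (Tcf4). Tcf4 in CD26+ minus the mean of the others gave 0.64 to 0.83, and the Sca1 contrast -1.04 to -0.77 (Lef1), 0.45 to 0.51 (Tcf7l2) and -0.43 to -0.31 (Tcf4).

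Counts of genes called also moved with the arrays used. All 12 arrays gave 137 in place of 243 for CD26+ minus Dlk1+Sca1-, 29 in place of 19 for CD26+ minus Dlk1-Sca1+, 88 in place of 263 for Dlk1-Sca1+ minus Dlk1+Sca1+ and 284 for the Sca1 contrast. Only the groups compared gave 109, 118 (in place of 274, Dlk1+Sca1+ minus Dlk1+Sca1-) and 26 (in place of 131, Dlk1-Sca1+ minus Dlk1+Sca1-). With an array left out, these comparisons gave 61 to 265, 8 to 25, 83 to 351, 86 to 277, 99 to 355 and 20 to 175, and CD26+ minus Dlk1+Sca1+ 426 to 967. The repeats of the list counts were chosen after seeing the data.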

Other observations

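The Dlk1-Sca1+ array left out of the fit, replicate 3, read 6.12 for Lef1, 8.92 for Tcf7l1, 9.95 for Tcf7l2 and 9.60 for Tcf4 on the log2 scale. Its mean log2 signal was 7.18 over the condensate and papilla markers, 7.46 over the cell-cycle genes and 8.01 over the adipogenic genes. Over the keratinocyte markers it was 5.26, over the leukocyte markers 5.23 and over the endothelial markers 5.37.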
